A study of Mus musculus with 6 samples.

Results

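The genes described here are 9 that carry the light response of rods: Gnat1, Gnb1, Gngt1, Pde6a, Pde6b, Pde6g, Cnga1, Cngb1 and Sag. They were chosen by name, as all probe sets whose gene symbol in the platform annotation is one of these, which gave 15 of the 45101 probe sets on each array and 9 of 18193 genes with a symbol. Total RNA of adult mouse retina was hybridised to 6 Affymetrix Mouse Genome 430 2.0 arrays, 1 per sample. Of these, 3 came from mice with a constitutive loss of Onecut2 (OC2-KO), a cut-homeodomain transcription factor of early retinal cells, and 3 from wildtype littermates (OC2-WT). Age is given only as adult, and the sources used here name neither the strain nor the number of retinas per array, nor whether each array came from a separate animal. The p-values therefore measure only how these arrays vary, and part of that may be technical. The comparison asks whether transcripts of the rod light response differ in a mature retina that developed without Onecut2. Because whole retinas were profiled, fewer rods and less RNA per rod cannot be told apart.

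Rods are the most abundant neurons of the mouse retina and report dim light. A photon activates the visual pigment in the outer segment, which switches on transducin, a G protein built from the alpha subunit Gnat1, the beta subunit Gnb1 and the gamma subunit Gngt1. The alpha subunit pulls the inhibitory gamma subunit Pde6g away from the catalytic phosphodiesterase subunits Pde6a and Pde6b, and the enzyme then breaks down cyclic GMP. The fall in cyclic GMP closes the channel made of Cnga1 and Cngb1, and arrestin, the product of Sag, shuts off the pigment. Horizontal cells, which lie downstream of this cascade, receive photoreceptor output and feed back onto it.

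The arrays differed in ways that bear on these genes. All values were scaled by the authors to the same trimmed mean, and the median intensity lay between 94.9 and 110. The 90th percentile of log2 intensity was nearly level, from 10.68 to 10.74, but the 99.9th percentile ran from 14.24 to 15.51. Arrays with the same replicate number in their titles varied together, and both arrays of replicate 3 had a raised log2 ratio of the 3′ to the 5′ control probe set of Actb, at 2.95 and 3.39 against 0.71 to 1.41 on the other 4. The 3 probe sets of Onecut2 lay between 5.28 and 7.01 on OC2-WT arrays and between 8.52 and 9.23 on OC2-KO arrays, but the study places them at the 3′ end of the gene, so they do not check its loss. The retina label was met by the rod factor Nrl, at a log2 intensity of 14.64 to 16.51. Summed linear intensities of 5 lens markers ran from 3720 to 40500 in OC2-WT and from 23900 to 34300 in OC2-KO, those of 6 pigment epithelium markers from 22500 to 80300 and from 13100 to 65100, and neither of the measured blood markers passed the filter. The part of these tissues in the values below was not tested.

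No rod gene differed between genotypes beyond the spread of its replicates. Of the 15 probe sets, 14 passed the expression filter, a mean log2 intensity above 7 in either genotype. None of the 14 passed limma at an adjusted p of 0.05, where 0% of all 21176 probe sets tested did. None passed at an unadjusted p of 0.05 either, where 0.987% of all did (0.661% higher and 0.326% lower in OC2-KO), and for none did the genotypes fail to overlap, which happened for 3.28% of all. Log2 differences between OC2-KO and OC2-WT ran from -0.33 to 0.42, with a median of 0.097 over the 14 probe sets against -0.0084 over all probe sets tested. The smallest unadjusted p of a member in limma was 0.333. Standard errors of these differences ran from 0.25 to 0.69. With the replicate number as a block, since arrays of 1 number varied together, they ran from 0.16 to 0.33 and the smallest p was 0.124. In 12 of the 14 the mean was higher in OC2-KO, but after quantile normalization most were lower, as given below. Median centring kept the median difference positive, at 0.088.

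Gnat1, the transducin alpha subunit of rods, was measured by 1 probe set, 1460212_at. Replicates 1, 2 and 3 of OC2-WT had log2 intensities of 15.24, 14.87 and 17.02, and those of OC2-KO had 16.03, 14.70 and 16.75. Values below follow the same order. Both arrays of replicate 3 were the highest and both of replicate 2 the lowest, and the genotypes overlapped. The difference was 0.12 ± 0.69 (SE), with a 95% confidence interval from -1.51 to 1.75, or 0.35-fold to 3.37-fold. With the replicate number as a block the interval was 0.704-fold to 1.68-fold. Between its lowest and highest array Gnat1 varied 4.97-fold.

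Gnb1, the transducin beta subunit, which many other cell types also use, had 3 probe sets. On 1454696_at, the brightest, the OC2-WT arrays gave log2 intensities of 15.10, 14.78 and 16.22 and the OC2-KO arrays 15.85, 14.67 and 16.27, which differ by 0.23 ± 0.52 (SE). On 1417432_a_at they gave 14.72, 14.10 and 14.92 against 15.19, 14.02 and 14.94, or 0.14 ± 0.37 (SE) higher in OC2-KO. Again replicate 2 gave the lowest arrays on both probe sets. The last, 1425908_at, lay below the filter at 4.63 to 5.56 and was not tested. There OC2-KO was lower in 3 of 3 replicates, with log2 differences of -0.11, -0.23 and -0.93.

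Gngt1, the transducin gamma subunit, had 4 probe sets and the widest differences among the members. The brightest, 1451633_a_at, stood at 14.37, 13.65 and 15.35 on the OC2-WT arrays against 15.20, 13.60 and 15.43 on the OC2-KO arrays, 0.29 ± 0.59 (SE) apart. On 1425167_a_at and 1425219_x_at the differences were 0.37 ± 0.61 and 0.42 ± 0.48 (SE). The x in the last name marks a probe set whose probes may bind other transcripts. These 3 probe sets moved alike, with OC2-KO replicate 1 above OC2-WT replicate 1 by 0.83 to 0.96 and replicate 2 near 0. The fourth, 1425168_at, did not follow them. Its OC2-WT arrays stood at 8.84, 8.61 and 9.37 and its OC2-KO arrays at 8.76, 8.97 and 8.10. The difference of -0.33 ± 0.32 (SE) was largest in replicate 3, at -1.27, and of opposite sign in replicate 2, at 0.36.

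**Figure D1:**
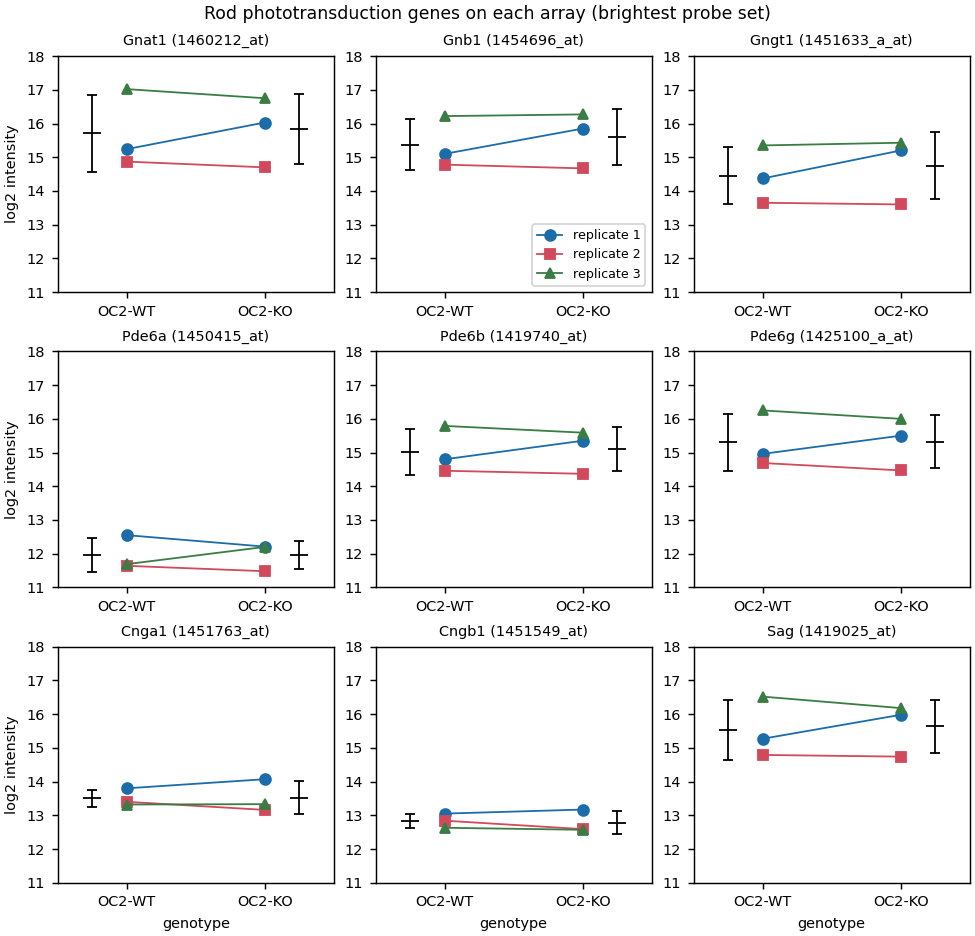
Log2 intensity (vertical axis, same scale in all panels) of the brightest probe set of each of the 9 genes on each array, by genotype (horizontal axis); coloured lines join arrays of the same replicate number, and black marks give the mean and SD of 3 arrays. In Gnat1, Sag, Pde6b, both transducin partners and Pde6g the replicates are stacked with replicate 3 highest and replicate 2 lowest, and the genotypes overlap in every panel.

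The phosphodiesterase genes overlapped between genotypes too. Pde6b, a catalytic subunit, was measured by 1419740_at, with log2 intensities of 14.80, 14.46 and 15.79 for OC2-WT against 15.35, 14.37 and 15.59 for OC2-KO. The means were 0.084 ± 0.45 (SE) apart. Pde6g, the inhibitory subunit, stood on 1425100_a_at at 14.96, 14.69 and 16.25 against 15.50, 14.47 and 16.00, with a difference of 0.023 ± 0.53 (SE). Its other probe set, 1450453_a_at, differed by 0.085 ± 0.49 (SE). For each of these 3 probe sets OC2-KO was higher in replicate 1 and lower in replicates 2 and 3.

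Pde6a, the other catalytic subunit, showed a different order of arrays. Its only probe set, 1450415_at, read 12.55, 11.64 and 11.69 for OC2-WT against 12.21, 11.48 and 12.20 for OC2-KO, and the highest array was OC2-WT replicate 1. The means were 11.96 ± 0.51 and 11.96 ± 0.42 (SD, n = 3), a difference of 0.0028 with a 95% confidence interval from -0.80 to 0.80, or 0.576-fold to 1.74-fold. Pde6a is the 1 member that lies on the chromosome of Onecut2, with 22 annotated protein-coding genes between them in a RefSeq gene table of assembly GRCm38.p6.

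The subunits of the cyclic GMP-gated channel had the smallest standard errors among the members. Cnga1, which forms the pore, read 13.80, 13.40 and 13.32 against 14.07, 13.16 and 13.33 on 1451763_at, and OC2-KO differed by 0.012 ± 0.30 (SE). Cngb1, the modulatory subunit, read 13.05, 12.84 and 12.63 against 13.17, 12.59 and 12.57 on 1451549_at, with OC2-KO lower (-0.061 ± 0.25, SE). Its 95% confidence interval, from -0.66 to 0.54, or 0.634-fold to 1.45-fold, was the narrowest among the members. For both genes the arrays of replicate 1 were the highest, and those of replicate 3 did not stand above the others as they did in Gnat1.

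Sag, rod arrestin, was measured by 1419025_at, which stood at 15.27, 14.79 and 16.52 on the OC2-WT arrays against 15.98, 14.74 and 16.18 on the OC2-KO arrays. The difference was 0.11 ± 0.54 (SE), and the replicate numbers were ordered as in Gnat1. OC2-KO exceeded OC2-WT by 0.71 in replicate 1 and fell below it in the other replicates (differences of -0.043 and -0.34).

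**Figure D2:**
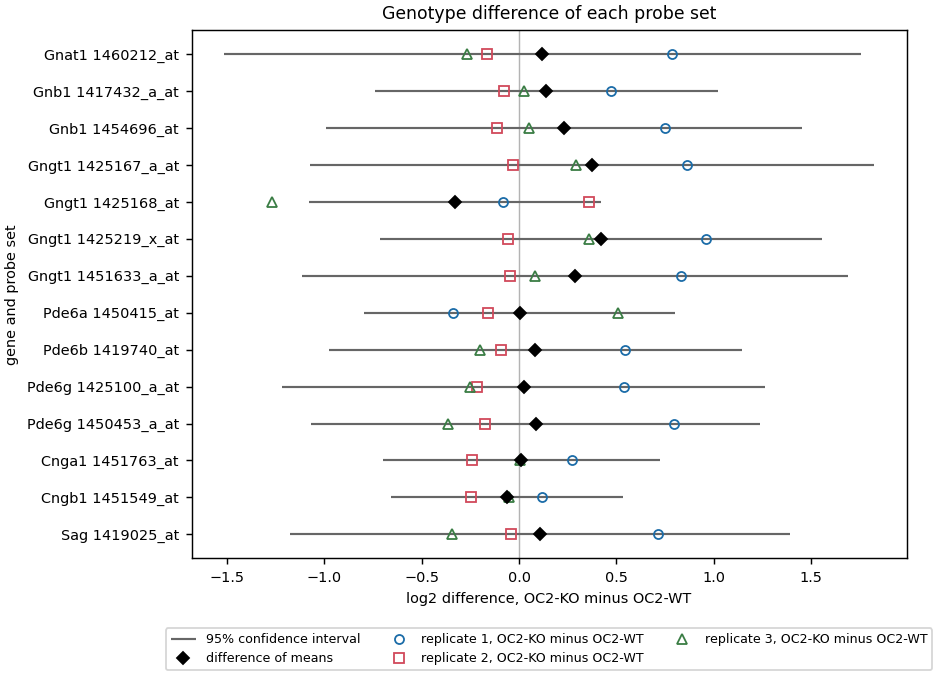
Log2 difference between OC2-KO and OC2-WT (horizontal axis) for the 14 probe sets that passed the filter (vertical axis), with black diamonds for the difference of means, grey lines for its 95% confidence interval from limma, and open symbols for the difference within each replicate number. All 14 intervals span 0, and the replicate 1 symbol lies to the right of the replicate 2 symbol for every probe set except Pde6a and 1425168_at of Gngt1.

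Within replicate numbers the rod genes shifted together, but not in 1 direction. In replicate 1, 12 of 14 probe sets were higher in OC2-KO, with a median log2 difference of 0.63. In replicate 2, 13 of 14 were lower, with a median of -0.10, and replicate 3 was split 7 to 7 with a median of -0.023. None of these 14 member probe sets was higher in all 3 replicates or lower in all 3, while 22.7% of all probe sets tested went 1 way throughout. The pattern of higher in replicate 1 and lower in replicate 2 was held by 12 of 14 members, or 85.7%, against 25.8% of all probe sets.

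The means of the replicate numbers ranged more widely than the genotypes differed for 13 of the 14 probe sets, or 92.9%, which is close to the 92.6% of all probe sets tested. The size of that range was larger than usual. The means of replicates 1, 2 and 3, taken over both genotypes, were 15.63, 14.78 and 16.88 for Gnat1 and 15.62, 14.77 and 16.35 for Sag. Over the 14 probe sets the median range of the 3 replicate means was 1.32 on the log2 scale, against 0.57 over all probe sets. A limma F test of replicate number beside genotype gave an adjusted p under 0.05 for 3 of the 14, namely Gnat1 (0.0421) and 2 probe sets of Gngt1 (0.0409 for 1425167_a_at and 0.0449 for 1451633_a_at), where 6.63% of all probe sets passed. None of the 3 remained after quantile normalization, with no filter or without replicate 3. At an unadjusted p of 0.05 it was 11 of 14, against 33.2% of all. Replicate 3 was the highest in 9 of the 14 and replicate 2 the lowest in 12.

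On their brightest probe sets the rod genes lie near the top of the intensity range. Among the 45037 probe sets that are not controls, Gnat1 ranked between 2 and 6 on the 6 arrays, Sag between 3 and 11, and the brightest probe set of Gnb1 between 7 and 14. Pde6g on 1425100_a_at ranked between 12 and 28 and Pde6b between 23 and 37. Cnga1, Cngb1 and Pde6a ranked lower, with mean intensities at the 99.1, 98.1 and 96.1 percentiles of all probe sets. The brightest probe set of Gngt1 ranked between 50 and 235. Far lower were 1425168_at of Gngt1, between 9343 and 15052, and 1425908_at of Gnb1, between 28573 and 35275. These ranks place each probe set on its array and do not compare amounts of transcript between genes. The brightest probe set of any kind, controls aside, reached 15.40, 14.96 and 17.35 on OC2-WT replicates 1, 2 and 3 and 16.51, 14.93 and 17.02 on the OC2-KO replicates.

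The upper end of the range moved between arrays as the rod genes did. The 99.9th percentile was 14.58, 14.33 and 15.51 on OC2-WT replicates 1, 2 and 3 and 15.26, 14.24 and 15.47 on the OC2-KO replicates. Within replicates 1, 2 and 3 it differed between OC2-KO and OC2-WT by 0.68, -0.084 and -0.046, and the median of the 9 member probe sets with a mean log2 intensity above 14 differed by 0.56, -0.092 and -0.28. The 90th percentile differed by -0.023, 0.00090 and -0.0095. Members are part of this upper end, with 7 or 8 of their probe sets among the brightest 100 on each array. Their likeness to the 99.9th percentile is therefore partly built in. The threshold of 14 was chosen after the values were seen.

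**Figure D3:**
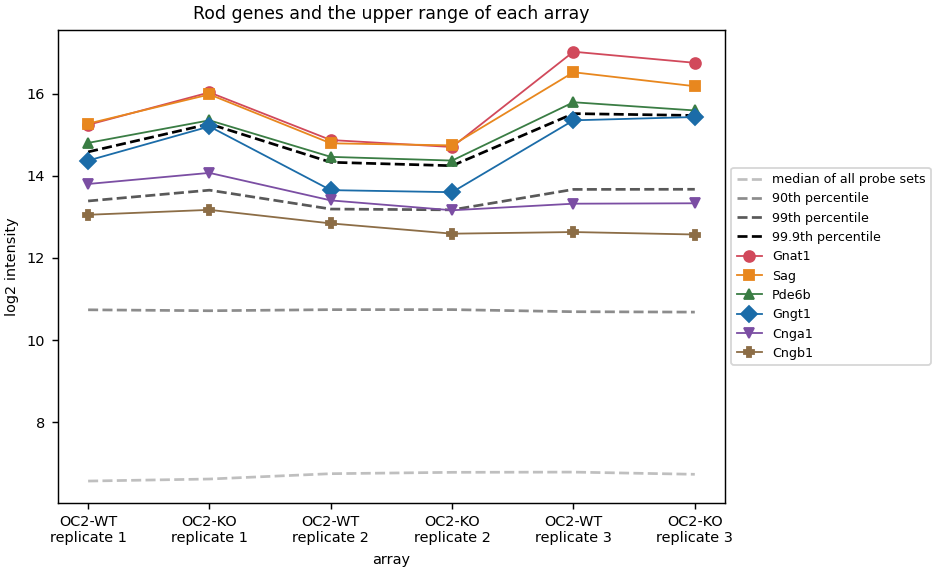
Log2 intensity (vertical axis) of 6 rod genes on their brightest probe sets (coloured symbols) and of percentiles over all probe sets (dashed lines) on the 6 arrays (horizontal axis), ordered by replicate number. Gnat1, Sag, Pde6b and Gngt1 rise and fall with the 99.9th percentile, which runs from 14.24 to 15.51, while Cngb1 and Cnga1 and the 90th percentile stay flatter. The percentiles count the rod genes too.

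Other bright probe sets shifted in the same replicates. The table holds 219 further probe sets with a mean log2 intensity above 14. Of these, 205 were higher in OC2-KO by their means, with a median difference of 0.15, against 9 of 9 members above 14 with a median of 0.12. In replicate 1, 214 of the 219 were higher in OC2-KO, and 157, or 71.7%, were higher in replicate 1 and lower in replicate 2. The median range over 6 arrays was 1.10 for the 219 and 1.78 for the 9 members. The 219 were not chosen apart from rods and include genes of the rod lists below, such as Nrl, Cdhr1, Rcvrn and Guca1b. How much of the shift such genes carry was not tested. These counts and medians are descriptions of the same arrays, and the difference between the sets was not tested.

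Quantile normalization, which gives every array the same distribution of values, narrowed this spread for all 9 members above 14, though to different degrees. Over the 9 above 14 the median range over 6 arrays went from 1.78 to 0.29. Gnat1 then read 15.64, 15.67 and 15.86 for OC2-WT against 15.71, 15.61 and 15.86 for OC2-KO. Its difference was 0.0023 ± 0.19 (SE), and its range over 6 arrays fell to 0.25 from 2.31. Sag read 15.71, 15.56 and 15.61 against 15.61, 15.71 and 15.43. The median difference of the 14 probe sets turned to -0.058, with 5 higher and 9 lower in OC2-KO and a smallest unadjusted p of 0.366 in limma. For probe sets that fill the top ranks this step fixes much of the value by its construction, so a change shared by the brightest transcripts would be removed with it. Pde6a, Cngb1 and 1425168_at of Gngt1 kept a range of 1.06, 0.63 and 1.26, close to their range with the deposited scaling of 1.07, 0.59 and 1.27. Cnga1 kept 0.82 of 0.91, and among the bright probe sets of Gngt1, 1425167_a_at kept 1.30 of 1.92 and 1451633_a_at 0.84 of 1.82.

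**Figure D4:**
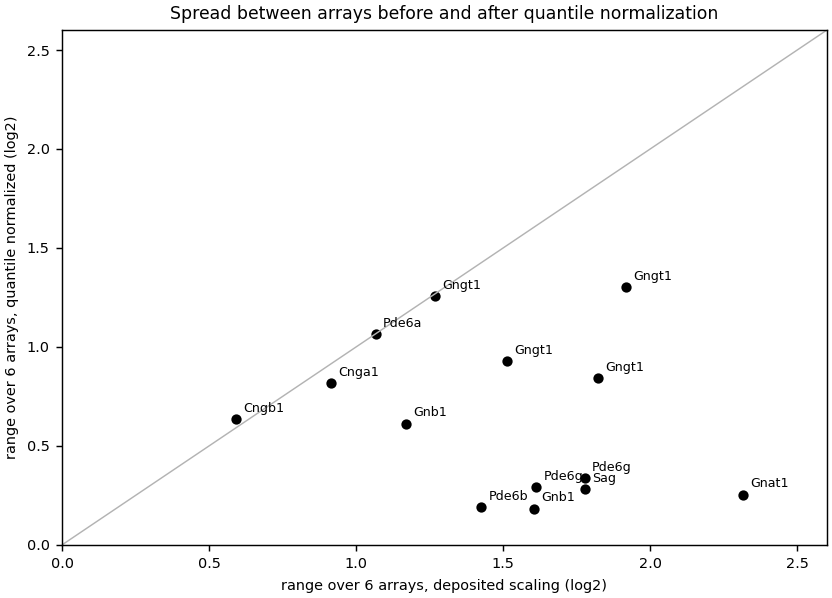
Difference between the highest and lowest of 6 arrays, on the log2 scale, for the 14 member probe sets with the deposited scaling (horizontal axis) and after quantile normalization (vertical axis), 1 point per probe set labelled by gene, with a grey line of equality. Gnat1 drops from 2.31 to 0.25, whereas Pde6a, Cngb1 and 1 probe set of Gngt1 stay near the line.

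No other gene of the rod cascade passed the test between genotypes. A list of 18 further genes of activation, shut-off and recovery had 15 with a probe set and 14 that passed the filter. On the brightest probe set of each, 9 were higher and 5 lower in OC2-KO, the median difference was 0.050, and 0 passed at an unadjusted p of 0.05 in limma. Grk1, the kinase that phosphorylates the light-activated pigment, had the smallest p. Its log2 intensities were 11.11, 11.02 and 9.86 for OC2-WT against 10.13, 9.98 and 9.41 for OC2-KO. OC2-KO was lower in 3 of 3 replicates, and the difference was -0.82 ± 0.39 (SE), with an unadjusted p of 0.0717 in limma, or 0.00548 with the replicate number as a block. Neither passed adjustment (adjusted p = 1.00 and 0.999), and with the block 4.19% of all probe sets fell under an unadjusted p of 0.05.

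The next smallest p-values of that list belonged to Pde6d, a carrier of prenylated phosphodiesterase subunits (0.12), Gnb5, the beta subunit of the complex that speeds transducin shut-off (-0.11), and Rcvrn, the calcium sensor that restrains Grk1 (0.19), as log2 differences. None of these passed. In replicate 3 the probe sets of some genes parted ways and those of others did not. For the cone genes Opn1sw, Pde6h and Arr3, every probe set had its highest replicate mean there. Aipl1, which encodes a chaperone of phosphodiesterase, had replicate means of 13.99, 13.56 and 14.07 on 1427952_at, the highest in replicate 3. With 1425590_s_at it read 10.55 and 9.60 there against 12.17 to 12.51 on the other arrays. Rdh12, a retinol dehydrogenase of photoreceptors, likewise read 11.23 and 11.14 on replicate 3 with 1431010_a_at against 12.15 to 13.15 elsewhere. The position of these probe sets within their transcripts was not analysed here, and a link to the Actb ratio was not tested.

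Rod identity and outer segment genes numbered 14 in the list, of which 12 had a probe set that passed. The median difference was 0.059, with 10 higher and 2 lower, and 0 passed at an unadjusted p of 0.05. Prph2, a tetraspanin that shapes the disc rim, had the largest difference at 0.59 ± 0.67 (SE), and it rested on OC2-KO replicate 1, at 13.19 against 10.61 to 11.66 on the 3 OC2-WT arrays and 10.81 and 10.82 on the other OC2-KO arrays. Rp1, a microtubule protein of the outer segment axoneme, was higher in 3 of 3 replicates by 0.31, 0.23 and 0.22 (a difference of 0.26 ± 0.31, SE). The photoreceptor cadherin gene Cdhr1 and the disc protein gene Prom1 differed by 0.25 and 0.23.

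Some cone counterparts of the cascade were higher in OC2-KO at an unadjusted p only. Of 10 listed genes 9 passed the filter, and 3 were higher in OC2-KO at an unadjusted p of 0.05 in limma, where 0.661% of all probe sets were, but 0 passed adjustment and 0 to 2 remained under 0.05 with any 1 of the 6 arrays left out. Of all 21176 probe sets tested, 2191 were higher in 3 of 3 replicates, and of the 9 genes 6 were. The 3 that also fell under the unadjusted threshold were Gngt2 (0.56 ± 0.21, SE) and Gnb3 (0.53 ± 0.22), the gamma and beta subunits of cone transducin, and Pde6c (0.82 ± 0.33), the catalytic subunit of the cone enzyme. Their rod counterparts Gngt1, Gnb1 and Pde6b differed by 0.29, 0.23 and 0.084 on their brightest probe sets and were lower in OC2-KO in replicate 2. Gngt2 lay near the filter of 7, with log2 intensities of 7.09 to 7.97 on the 6 arrays. The cone arrestin gene Arr3 differed by 0.23 on its brightest probe set, by 0.18 on 1441144_at and by -0.060 on 1425232_x_at. The median was 0.29 for the cone list and 0.084 for the brightest probe sets of the 9 rod genes, and the difference between the lists was not tested.

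**Figure D5:**
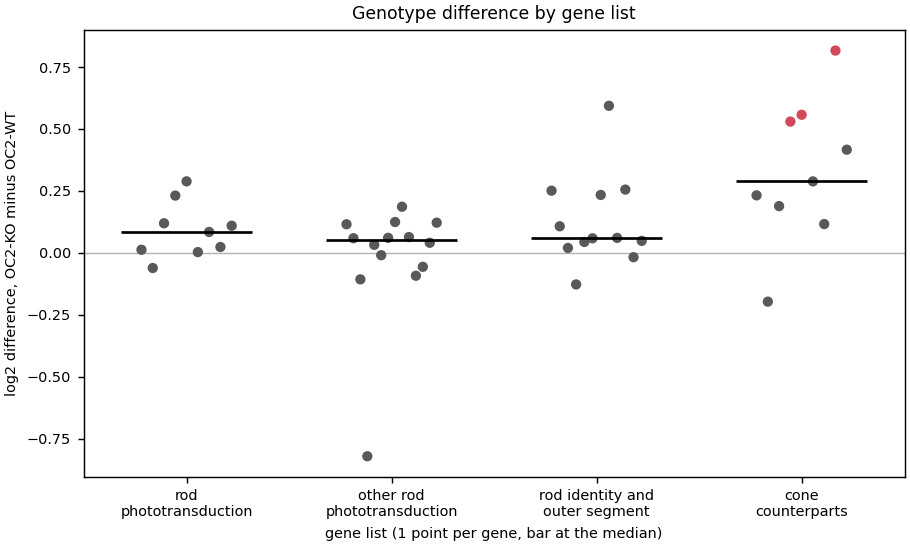
Log2 difference between OC2-KO and OC2-WT (vertical axis) for the brightest probe set of each gene in 4 lists (horizontal axis), with black bars for the list median and red points for an unadjusted p under 0.05. The 9 rod genes lie between -0.061 and 0.29, the low point at -0.82 is Grk1, and the 3 red points are Gngt2, Gnb3 and Pde6c among the cone counterparts.

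The 5 genes whose log2 values followed the mean of the 9 members most closely over the 6 arrays, among 11056 compared, were Lyar, Pabpc1, Tlcd3b, Rom1 and Lrch4, with Pearson r from 0.995 to 0.999. The mean of the members was 14.35, 13.90 and 14.98 on OC2-WT replicates 1, 2 and 3 and 14.82, 13.75 and 14.92 on the OC2-KO replicates. Rom1, the partner of Prph2 in the disc rim, was the 1 of the 5 on the lists used here. Pabpc1, a poly(A)-binding protein of all cells, read 13.85, 13.59 and 14.32 against 14.15, 13.48 and 14.23. The points share arrays that vary in pairs, and after quantile normalization the same 5 genes had r from 0.27 to 0.69.

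The sequence before the start sites was read as context for these genes, and no link between it and the array values was tested. The promoter table of RefSeq genes in build GRCm38.p6 held 6 of the 9 members. The 250 bases before the start were searched on both strands for TAATCC, the core that the photoreceptor homeodomain factors CRX and OTX2 bind, a motif chosen with these genes in mind. It was present in 4 of the 6, Sag, Gngt1, Cngb1 and Cnga1, against 6.25% of all 32851 promoters in the table. The stretches of 120 bases that hold it are shown 5′ to 3′ on the gene's strand because they carry the match, with capitals marking TAATCC or its reverse complement GGATTA. They lie at chr1:87803560-87803679 (plus strand, Sag), chr6:3993888-3994007 (plus strand, Gngt1), chr8:95306586-95306705 (minus strand, Cngb1) and chr5:72642883-72643002 (minus strand, Cnga1).
Sag: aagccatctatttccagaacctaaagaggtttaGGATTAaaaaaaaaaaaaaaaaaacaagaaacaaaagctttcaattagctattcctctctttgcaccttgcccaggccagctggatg
Gngt1: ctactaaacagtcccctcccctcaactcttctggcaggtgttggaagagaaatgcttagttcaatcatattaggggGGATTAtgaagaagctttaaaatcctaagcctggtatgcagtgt
Cngb1: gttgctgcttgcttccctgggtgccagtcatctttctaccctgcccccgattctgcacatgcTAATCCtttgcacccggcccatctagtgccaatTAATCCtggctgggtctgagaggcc
Cnga1: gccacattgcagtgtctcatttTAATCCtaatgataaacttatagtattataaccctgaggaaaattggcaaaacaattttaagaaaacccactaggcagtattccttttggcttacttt

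Counted to its farthest base, the match began 87 bases before the start of Sag, 44 before that of Gngt1, 58 and 25 before that of Cngb1 and 228 before that of Cnga1. TGCTGA, the core bound by MAF family factors such as NRL, was found in Sag and Pde6b, 2 of 6, against 16.1% of all promoters. Of the core sequences bound by Onecut factors, ATTGAT was in 0 of 6, against 6.72% of all, and ATCGAT was in Gngt1 alone, 231 bases before its start, against 0.728% of all. No pair of these matches overlapped in a member promoter. A match is a description of the letters and not a bound site.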

How the data were processed

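Total RNA of adult retina was amplified, biotin-labelled and hybridised to 6 arrays. The deposited table holds a linear intensity for each of 45101 probe sets, which the authors background-adjusted and normalized with MAS5 in the affy package (versions not given in the sources used here). Each array has a 2% trimmed mean of about 500, so a shift of every gene at once would be invisible. Groups came from the sample titles. The number of arrays limits the precision. No scanner file was analysed here.

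Values were converted to log2 without the 64 control probe sets, and 21176 probe sets with a mean log2 intensity above 7 in either genotype were kept, the filter of the study's methods. Genotypes were compared two-sided in limma 3.58.1 (R 4.3.3; lmFit, then eBayes) without a block, with Benjamini-Hochberg adjustment over all probe sets kept and 4 residual degrees of freedom. The fit was tested on simulated data drawn independently for each array. Such data lack the variation shared within replicate numbers, so they do not check error rates for these arrays. Gene symbols were those of the platform annotation, where no probe set listed a member among several symbols. List genes were represented by their brightest probe set over all arrays.

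The members and lists were chosen with earlier results of these data known. The text names all members, up to 4 genes per list by smallest p, and the 5 genes most correlated with the members' mean. Aipl1, Rdh12, Opn1sw and Pde6h were named after their values were seen. After each genotype's mean was removed, arrays correlated at 0.576, 0.590 and 0.585 within replicate numbers 1, 2 and 3 and at -0.429 to -0.135 between them. With the mean removed, positive values within numbers force the others to be negative on average, so the negative values add no evidence. From the positive values the numbers were taken to pair the arrays. This rests on the correlations, since the labels tie no number to a litter. The titles of both replicate 3 arrays use another word order than the rest, and their sample records are numbered later. Whether they were processed apart from the other arrays is not stated in the sources used here. Alternatives covered the filter (none, or at 8), the scaling (quantile or median), an intensity trend, array weights, the methods' t-test, a floor at 6, the replicate block (2 residual degrees of freedom), the choice of probe set and leaving arrays out. Leaving out replicate 1 or 2 in both genotypes, and the block joined with quantile normalization or with no filter, were added after seeing the data.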

Additional observations from a re-analysis of the deposited data

How the results depend on the processing

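No member probe set passed at the unadjusted threshold under any of the 22 alternatives, except 1425219_x_at of Gngt1 without OC2-KO replicate 2. The count therefore ran from 0 to 1 over the fits that left out 1 array. The lowest adjusted p of a member was 0.998. The median member difference ran from -0.1352 to 0.5202 over those fits, the highest without OC2-WT replicate 3. It was -0.1325, 0.1998 and 0.2682 without replicate 1, 2 or 3 in both genotypes, and ran from -0.058 to 0.41 with all arrays kept.

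The replicate block, which uses the pairing, gave 887 probe sets under an unadjusted p of 0.05 in place of 209, and changed no call of a member or a named list gene other than Grk1. The count was 881 with the block and quantile normalization, 1856 with the block and no filter, 1144 with no filter, 127 with the filter at 8, 436 with array weights, and 209 to 560 with 1 array left out, the highest without OC2-KO replicate 2. Between replicate numbers 1405 probe sets differed, against 0 with no filter, 776 after quantile normalization and 169 without replicate 3, with no member among them in any of these.

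Under quantile normalization, with or without the block, the log2 difference turned to -0.075 for Gnb1 (1417432_a_at), -0.044 for Pde6a, -0.072 for Pde6b, -0.12 and -0.086 for Pde6g, -0.15 for Cnga1 and -0.043 for Sag. Median centring turned Pde6a to -0.0068. Without replicate 1 in both genotypes the differences were -0.21 for Gnat1, -0.026 and -0.029 for Gnb1, -0.15 for Pde6b, -0.23 and -0.27 for Pde6g, -0.12 for Cnga1 and -0.19 for Sag. Without replicate 2, Cngb1 turned to 0.032, and without replicate 3, 1425168_at of Gngt1 turned to 0.14 and Pde6a to -0.25.

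With 1 array left out, differences ran from -0.34 to 0.77 for Gnat1, -0.10 to 0.49 and -0.11 to 0.70 for Gnb1, -0.20 to 0.47 for Pde6b, -0.26 to 0.19 for Cnga1, -0.26 to 0.045 for Cngb1 and -0.26 to 0.61 for Sag. They ran from -0.16 to 0.30 for Pde6a, -0.31 to 0.50 and -0.18 to 0.54 for Pde6g, and -0.055 to 1.00, -0.51 to -0.075, 0.15 to 0.92 and -0.11 to 0.86 for the Gngt1 probe sets 1425167_a_at, 1425168_at, 1425219_x_at and 1451633_a_at.

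Of the other rod cascade genes, 1 passed with array weights, with the block (alone, with no filter or with quantile normalization) and without replicate 3, and 0 to 1 with 1 array left out. Of the 3 cone counterparts, 0 passed with no filter, with or without the block, 1 after median centring, 0 without replicate 2 or 3 in both genotypes, 1 without replicate 1, and 0 to 2 with 1 array left out. With the filter at 8, Gngt2 was not tested and 2 cone counterparts passed. The cause of these changes was not tested.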
